A study of Mus musculus with 17 samples.

Results

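The 42 genes described here act when a cell divides. They encode the machinery of G2 and M phase: cyclins and their kinases, the spindle, the kinetochore, condensin and the proteins that cleave the cell. They were taken as a list of mouse symbols, chosen by function with earlier results of these data known. All 42 were found among the 53679 genes of the count files, and all passed the filter on low counts. They were measured by RNA sequencing in 17 libraries of CD8+ T cells of the C57BL/6 mouse strain. The cells were wild type (WT) for Cblb or carried a knockout (KO) of it. Cblb encodes Cbl-b, a ubiquitin ligase that restrains signalling from the T cell receptor. The labels do not say how the knockout was made. Cells of each genotype were unstimulated, stimulated with anti-CD3, or stimulated with anti-CD3 together with anti-CD28. Anti-CD3 engages the receptor complex and anti-CD28 the costimulatory receptor. Each group held 3 libraries, except the WT group given both antibodies, which held replicates 2 and 3. Its replicate 1 was not analysed here. The stimulated cells were collected after 12 h. No culture time is given for the unstimulated cells, so stimulation and time in culture cannot be told apart. The labels do not say that replicates were separate animals. P-values thus rest on the spread among these libraries alone, and that spread may be technical.

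A resting T cell sits outside the cell cycle and starts to divide only after its receptor has been engaged for a day or so. Mitotic genes are switched on late in each cycle. In resting cells they are held down by the DREAM complex, which sits on a short promoter element called the cell cycle homology region (CHR). In G2 the factors B-Myb and FoxM1 take its place and the same genes are transcribed. Cyclin B and CDK1 then drive entry into mitosis, the spindle checkpoint holds the cell until every chromosome is attached, and the anaphase-promoting complex (APC/C) ends mitosis by destroying cyclins. Most of these transcripts therefore mark cells in G2 or M phase. In bulk RNA, fewer dividing cells and less RNA per dividing cell cannot be told apart.

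Libraries held 16635826 to 38269033 counts, and 160059285 in KO unstimulated replicate 2. No library repeated another, since counts of replicates differed beyond sampling noise (chi-square per gene of 4.03 to 629). Cblb transcripts were lower in KO cells in each state, by log2 fold changes of -1.16 ± 0.083 in unstimulated cells, -1.21 ± 0.083 with anti-CD3 and -1.05 ± 0.090 with both antibodies. RNA from the locus was thus still counted in KO cells, and the deleted stretch is not given in the labels. The 7 CD8 T cell markers summed to 3461 to 4067 CPM (counts scaled to a common library size) in unstimulated libraries and 1939 to 2195 in stimulated ones. The 4 CD4 T cell markers summed to 2.05 to 4.06 CPM. Of these, Cd4 stayed at or below 0.292 CPM, while Foxp3 stood at 0.89 to 2.16 and Zbtb7b at 0.234 to 2.01. The 6 B cell markers summed to 303 to 355 CPM in unstimulated WT, 235 to 267 in WT with anti-CD3, 259 to 273 in WT with both, 364 to 435 in unstimulated KO, 196 to 222 in KO with anti-CD3 and 158 to 231 in KO with both. Nearly all of that sum was Ighm, while Pax5 reached at most 0.832 CPM. The 7 myeloid markers summed to at most 3.17 CPM. The 4 natural killer markers summed to 7.43 to 11.5 in unstimulated libraries and 3.43 to 6.98 in stimulated ones. The 4 thymocyte markers summed to 6.85 to 11.6 CPM in unstimulated WT and 7.32 to 7.69 in unstimulated KO, 3.59 to 6.37 in WT and 2.14 to 2.86 in KO with anti-CD3, and 4.05 to 4.9 in WT and 2.88 to 2.99 in KO with both. Dntt made up most of that sum, while Rag1 and Rag2 were at 0. Of the 3 megakaryocyte markers, Itga2b stood at 1.26 to 4.1 CPM, and Pf4 and Ppbp were at 0. The part of these cells in the results was not tested. Libraries differed in how high genes of at least 56% GC stood against genes of at most 40% GC. This difference in median log2 deviation, called GC tilt here, reached 1.15 for KO unstimulated replicate 2 and -1.15 for KO both-antibody replicate 3, while the others ran from -0.75 to 0.57. It was larger in KO than in WT by 1.12 unstimulated and 0.54 with anti-CD3, and smaller by 0.85 with both antibodies. Of the 42 genes, 30 lay below the median GC content of the genes tested (48.7%), with a median of 46.5%. Counts of calls corrected for GC content are therefore given beside the main counts of members, with the share of all genes under the same correction.

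The genes were low in these cells. Per kilobase of exon and averaged over the 17 libraries, their median was 0.913 CPM, against 3.4 for all genes tested, and 36 of 42 lay below that median. Mean levels were under 5 CPM for 21 members. Only 4 exceeded 50 CPM. The highest was Smc4, a core subunit of condensin, at 171 CPM per kilobase. The cytokinesis regulator Racgap1 followed at 11.3, the condensin subunit Smc2 at 10.9 and the checkpoint protein Bub3 at 10.4 CPM per kilobase. Smc4 hosts the microRNA genes Mir15b and Mir16-2 on its own strand, and its reads can include their precursor. The lowest levels per kilobase were those of Anln (0.199 CPM), Ttk (0.213 CPM) and Cenpf (0.214 CPM), which act in late mitosis, the checkpoint and the kinetochore. The lowest count of any member in any library was 3, and 4 members had under 10 counts in some library. Counting error adds to the spread of those members, which are Aurkb, Kif2c, Ttk and Ube2c.

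The promoters are shown because the CHR is the element through which these genes are known to be held down in resting cells. RefSeq (GRCm38.p6) gave windows from 250 bases before to 50 bases after the start for 36 of the 42 genes. None was given for Aurkb, Ccna2, Incenp, Kif20a, Smc4 or Tpx2. Windows were searched on both strands for the CHR letters TTTGAA and TTCGAA and for CCAAT, the box bound by NF-Y, which often lies a short way upstream of a CHR. Neither CHR string contains the other or CCAAT, though end letters may be shared. TTTGAA was found for 30 of the 36 genes (83.3%), against 20.2% of all 27025 genes with a window. TTCGAA was found for 3 of the 36 (8.33%, against 1.8%). CCAAT was found for 29 (80.6%, against 41.1%), and at least 2 copies for 20 (55.6%, against 13.3%). A CHR element and CCAAT were both found for 27 genes (75.0%, against 8.61%). The CHR lay from 60 bases before to 40 bases after the start for 28 genes (77.8%, against 6.58%). Birc5, Ccnb1, Cenpe, Mad2l1 and Nusap1 had neither CHR letter string in these windows.

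Stretches from 170 bases before the start to 30 bases from it follow for 5 members, 5′ to 3′, with CHR elements and CCAAT in capitals on either strand (TTCAAA and ATTGG are their reverse forms). Top2a, Cdk1 and Ube2c are shown because they were higher in KO cells with anti-CD3. Kif23 and Racgap1 are shown because they fell on stimulation in both genotypes.
Top2a (chr11:99024160-99024359, minus strand): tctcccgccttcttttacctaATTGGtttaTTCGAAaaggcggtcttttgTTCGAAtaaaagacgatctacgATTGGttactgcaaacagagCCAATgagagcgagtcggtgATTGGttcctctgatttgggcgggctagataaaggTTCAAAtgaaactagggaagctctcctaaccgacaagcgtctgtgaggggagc
Cdk1 (chr10:69352883-69353082, minus strand): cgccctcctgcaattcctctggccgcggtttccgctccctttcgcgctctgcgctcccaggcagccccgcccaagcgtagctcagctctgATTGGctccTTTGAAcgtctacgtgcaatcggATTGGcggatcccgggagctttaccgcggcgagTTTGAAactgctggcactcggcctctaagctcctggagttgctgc
Ube2c (chr2:164769759-164769958, plus strand): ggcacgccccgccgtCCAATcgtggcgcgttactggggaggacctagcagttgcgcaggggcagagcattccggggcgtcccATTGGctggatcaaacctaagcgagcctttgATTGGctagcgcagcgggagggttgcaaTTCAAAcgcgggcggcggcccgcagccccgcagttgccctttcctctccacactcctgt
Kif23 (chr9:61946770-61946969, minus strand): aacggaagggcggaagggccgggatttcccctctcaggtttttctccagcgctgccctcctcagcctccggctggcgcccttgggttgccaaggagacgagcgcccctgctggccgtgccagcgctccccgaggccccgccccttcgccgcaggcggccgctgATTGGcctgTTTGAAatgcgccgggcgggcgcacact
Racgap1 (chr15:99651627-99651826, minus strand): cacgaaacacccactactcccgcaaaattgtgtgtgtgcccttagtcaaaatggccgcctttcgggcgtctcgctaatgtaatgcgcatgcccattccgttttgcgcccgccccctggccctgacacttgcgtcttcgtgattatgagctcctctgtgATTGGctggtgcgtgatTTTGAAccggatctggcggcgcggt

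The stretch of Top2a held 3 CHR elements and 4 CCAAT boxes, that of Cdk1 2 and 2, and that of Ube2c 1 and 3. Kif23 and Racgap1 each held 1 CHR element, just after the start, with 1 CCAAT box close before it. All 5 thus carried both kinds of element, although they were called in different comparisons below. A match of letters describes the sequence only, and binding was not measured.

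**Figure D1:**
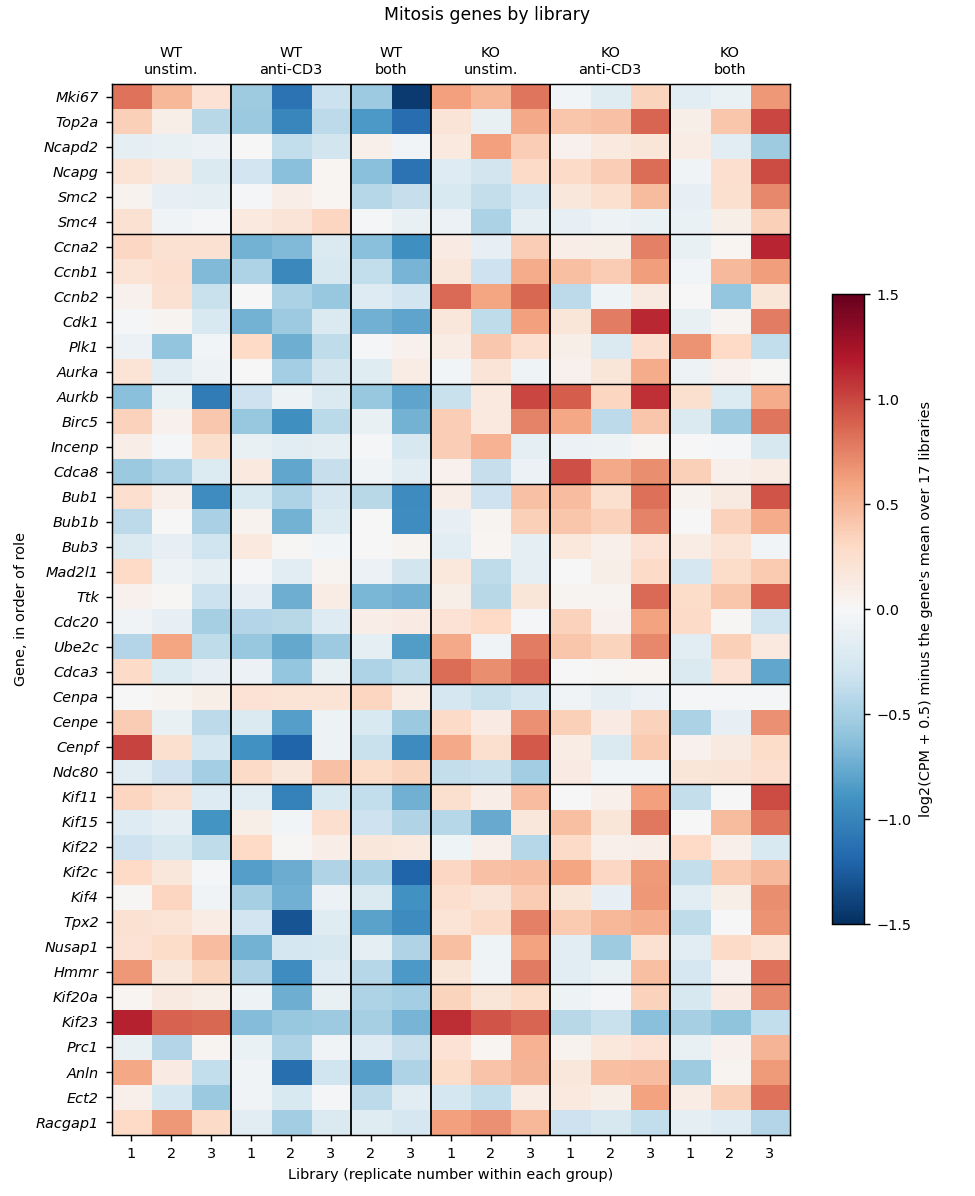
Heat map of the 42 mitosis genes (rows, grouped by role) in the 17 libraries (columns, by group and replicate). Colour gives log2(CPM + 0.5) minus the gene's mean over all libraries. Most rows are blue in the WT libraries given anti-CD3 or both antibodies and red in the third KO library of each state, while Kif23 and Racgap1 are red in unstimulated libraries of both genotypes.

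Stimulation did not raise these genes as a group in WT cells. With anti-CD3, 8 of 42 fell and 3 rose by edgeR's quasi-likelihood test at an adjusted p under 0.05, a result termed called below. Of all 16246 genes tested, 13.1% were lower and 11.3% higher in the same comparison. The 8 that fell were the proliferation marker Mki67, the survivin gene Birc5, the kinetochore gene Cenpf, the spindle genes Hmmr, Kif2c and Nusap1, and the cytokinesis genes Kif23 and Racgap1. The kinetochore gene Ndc80, the checkpoint gene Bub3 and the chromosome motor gene Kif22 rose. The median log2 fold change of the 42 was -0.36, against 0.00 for all genes tested, and 32 of 42 values lay below 0. The count of 11 called was 5 without WT anti-CD3 replicate 1, 4 without its replicate 2 and 7 without WT unstimulated replicate 1. Kif23, Racgap1, Mki67 and Ndc80 stayed called whichever library was left out. After the GC correction 11 were lower (18.1% of all genes), with Ccna2, Top2a and Tpx2 added, and 4 higher (15.9% of all genes), with Smc4 added.

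With both antibodies, 10 of the 42 fell in WT cells (16.3% of all genes) and 2 rose (17.8% of all genes). Ccna2, Ncapg, Top2a and Tpx2 joined Cenpf, Hmmr, Kif2c, Kif23, Mki67 and Racgap1 among those that fell, and Kif22 and Ndc80 rose again. The median log2 fold change was -0.60, against -0.01 for all genes tested, with 34 values below 0. Both WT comparisons share the same unstimulated libraries. The count of 12 was 6 without WT both-antibody replicate 2 and 3 without its replicate 3, the only other library of that group. Kif23, Racgap1 and Ndc80 stayed called in each case. Corrected for GC content, 9 were lower (17.6% of all genes), without Cenpf and Ncapg and with Incenp added, and 3 higher (15% of all genes), with Bub3 added.

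In KO cells the called genes were in part those called in WT. With anti-CD3, 5 of 42 rose (19.6% of all genes), namely Bub3, Cdca8, Kif15, Ndc80 and Smc2, and 4 fell (17.3% of all genes), namely Ccnb2, Cdca3, Kif23 and Racgap1. Of these 9, Bub3, Ndc80, Kif23 and Racgap1 were called in the same direction in WT. The median log2 fold change was 0.16, against 0.02 for all genes, and 25 values lay above 0. With both antibodies, 6 rose (23% of all genes): Cenpa, Ect2, Kif15, Ndc80, Smc2 and Smc4. A further 6 fell (22.5% of all genes): Ccnb2, Cdca3, Incenp, Kif23, Ncapd2 and Racgap1. Of these 12, Ndc80, Kif23 and Racgap1 were called in the same direction in WT. The median was -0.02, against 0.01 for all genes. Corrected in the same way, 3 were higher (20.2% of all genes) and 5 lower (23.6%) with anti-CD3, without Bub3 and Ndc80 and with Nusap1 added to the lower. With both antibodies 1 was then higher (21.3% of all genes), Cenpa, and 7 lower (22.7%), without Incenp and with Cenpe and Nusap1 added. The count of 12 with both antibodies was 7 without KO unstimulated replicate 2. With anti-CD3 the count of 9 lay between 8 and 12 whichever library was left out.

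**Figure D2:**
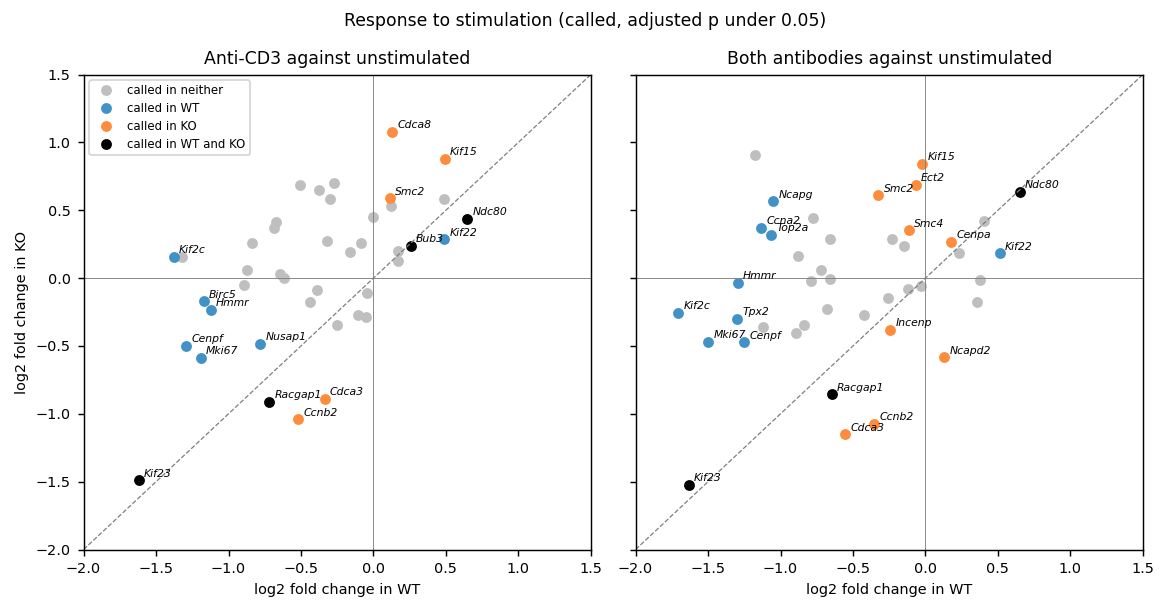
Log2 fold change on stimulation in WT cells (x axis) and KO cells (y axis) for the 42 genes, with anti-CD3 (left) and both antibodies (right). Points are coloured by the genotype in which the gene was called, and the dashed line marks equal change. Kif23, Racgap1 and Ndc80 lie near the line, and 31 of the 42 genes lie above it in each panel.

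Kif23 (ENSMUSG00000032254, chr9:61915905-61946774, minus strand) and Racgap1 (ENSMUSG00000023015, chr15:99620496-99651656, minus strand) fell on stimulation in every comparison. Positions are from GENCODE M21 on GRCm38, here and below. Their products form centralspindlin, the complex that bundles the central spindle and starts the cleavage furrow. Both were called lower in all 4 comparisons of stimulated with unstimulated cells. No other member was. Kif23 stood at 25.8, 21.4 and 21.1 CPM in unstimulated WT libraries (in order of replicate number, here and below), 7.06, 7.52 and 7.63 with anti-CD3 and 7.89 and 6.80 with both antibodies. KO libraries held 25.0, 22.3 and 21.3 unstimulated, 8.43, 8.89 and 7.21 with anti-CD3 and 7.88, 7.33 and 8.67 with both CPM. Every stimulated library of either genotype lay below every unstimulated one. The log2 fold changes with anti-CD3 were -1.62 ± 0.13, adjusted p = 5.57e-08 in WT and -1.49 ± 0.13, adjusted p = 1.07e-07 in KO (± SE throughout). Those with both antibodies were -1.63 ± 0.15, adjusted p = 5.19e-07 in WT and -1.52 ± 0.13, adjusted p = 1.05e-07 in KO.

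Racgap1 stood at 94.7, 120.2 and 93.9 CPM in unstimulated WT libraries, 68.3, 53.3 and 65.9 with anti-CD3 and 67.3 and 64.3 with both antibodies. In KO libraries it stood at 117, 124 and 108 unstimulated, 61.6, 64.7 and 59.3 with anti-CD3 and 69.2, 67.1 and 56.4 with both CPM. Stimulated and unstimulated libraries did not overlap in either genotype. The log2 fold changes with anti-CD3 were -0.72 ± 0.11, adjusted p = 0.000169 in WT and -0.91 ± 0.12, adjusted p = 9.69e-06 in KO. Those with both antibodies were -0.65 ± 0.13, adjusted p = 0.00137 in WT and -0.86 ± 0.12, adjusted p = 1.89e-05 in KO. Neither gene was called between KO and WT in any state, where log2 fold changes were 0.00, 0.13 and 0.11 for Kif23 (unstimulated, anti-CD3, both) and 0.18, -0.01 and -0.03 for Racgap1. Both transcripts were thus most abundant in unstimulated cells.

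No other member of the central spindle and cytokinesis group was called lower. Ect2, which centralspindlin recruits to start furrowing, was not called in WT and rose in KO cells with both antibodies, from 4.21, 3.88 and 5.63 to 5.60, 6.75 and 9.43 CPM (log2 fold change 0.69 ± 0.23, adjusted p = 0.0212). It was also higher in KO than in WT cells given both antibodies (log2 fold change 0.80 ± 0.26, adjusted p = 0.0481), where WT libraries held 3.79 and 4.55 CPM. Both calls were lost after the GC correction, at log2 fold changes of 0.24 and 0.47. They were also lost in 3 and 11 of the 17 fits that left out 1 library. Anln, an actin-binding scaffold of the furrow, Prc1, the microtubule bundler of the midzone, and Kif20a, a midzone motor, were called in none of the 11 comparisons. Group means of those 3 lay between 0.902 CPM (Anln) and 6.71 CPM (Prc1).

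Among kinetochore genes, Ndc80 (ENSMUSG00000024056, chr17:71496100-71526857, minus strand) rose. Its product is the part of the kinetochore that grips microtubules. Ndc80 stood at 9.40, 8.48 and 7.30 CPM in unstimulated WT libraries, 13.1, 11.9 and 14.6 with anti-CD3 and 12.9 and 13.5 with both antibodies. KO libraries held 8.14, 8.30 and 7.24 unstimulated, 11.6, 10.2 and 10.3 with anti-CD3 and 12.1, 12.2 and 12.7 with both CPM. All stimulated libraries exceeded all unstimulated ones in both genotypes. The log2 fold changes in WT were 0.65 ± 0.12, adjusted p = 0.000899 with anti-CD3 and 0.65 ± 0.14, adjusted p = 0.00194 with both antibodies. In KO they were 0.44 ± 0.12, adjusted p = 0.011 and 0.64 ± 0.13, adjusted p = 0.00062, and 0.19 and 0.27 after the GC correction, which ended both KO calls. The anti-CD3 call in KO was also lost without KO anti-CD3 replicate 1 or without KO unstimulated replicate 3.

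Cenpa (ENSMUSG00000029177, chr5:30666777-30674830, plus strand) encodes the histone H3 variant that marks the centromere. It was the one member called lower in KO than in WT before the GC correction. WT libraries held 19.6, 20.1 and 20.8 CPM unstimulated, 22.7, 22.6 and 22.7 with anti-CD3 and 24.6 and 21.1 with both. KO libraries held 16.3, 15.4 and 16.2 unstimulated, 18.8, 17.8 and 18.3 with anti-CD3 and 19.1, 19.3 and 19.2 with both CPM. Every KO library lay below every WT library of the same state. The log2 fold change of KO over WT was -0.34 ± 0.088, adjusted p = 0.014 unstimulated, -0.31 ± 0.088, adjusted p = 0.0251 with anti-CD3 and -0.25 ± 0.099, adjusted p = 0.0875 with both antibodies. The last was not called, but was after the GC correction (log2 fold change -0.32). The unstimulated call was lost without KO unstimulated replicate 2 or WT unstimulated replicate 1. The anti-CD3 call was lost without KO anti-CD3 replicate 2 or 3 or any 1 of the 3 WT anti-CD3 libraries. Cenpa rose on stimulation with both antibodies in KO (log2 fold change 0.27 ± 0.089, adjusted p = 0.022), a call lost without KO both-antibody replicate 2 or KO unstimulated replicate 1 or 2.

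Cenpe, the kinetochore motor, was called in no comparison. It stood at 7.58, 5.25 and 4.24 CPM in unstimulated WT libraries, 4.84, 3.02 and 5.42 with anti-CD3 and 4.83 and 3.72 with both. KO libraries held 7.08, 6.30 and 9.51 unstimulated, 7.46, 6.30 and 7.43 with anti-CD3 and 3.99, 5.23 and 9.55 with both CPM. All 3 KO libraries given anti-CD3 exceeded the WT ones, with a log2 fold change of 0.69 ± 0.30, adjusted p = 0.126, and groups overlapped in the other states. It was called higher there after the GC correction (log2 fold change 0.75). Cenpf, a large protein of the outer kinetochore, fell in WT cells with anti-CD3 (log2 fold change -1.29 ± 0.38, adjusted p = 0.0185) and both antibodies (-1.25 ± 0.44, adjusted p = 0.0384). The second call was lost after the GC correction. The first was lost without WT anti-CD3 replicate 1 or 2 or WT unstimulated replicate 1, and the second without either WT both-antibody library or WT unstimulated replicate 1.

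Knockout and wild type were then compared in each state. Most of the 42 genes had a log2 fold change of KO over WT above 0 in each state. With anti-CD3, 13 of 42 were called higher in KO (10.5% of all genes) and 1, Cenpa, lower (4.8% of all genes). The 13 were Aurka, Aurkb, Bub1b, Ccna2, Ccnb1, Cdc20, Cdca8, Cdk1, Kif2c, Ncapg, Top2a, Tpx2 and Ube2c, with log2 fold changes of 0.65 (Aurka) to 2.07 (Ube2c). The median over the 42 was 0.70, against 0.04 for all genes tested, and 38 of 42 values lay above 0. For 27 members every KO library exceeded every WT library, against 27.4% of all genes. B cell markers summed to less in those KO libraries than in the WT ones. The members' count of 14 called rested on single libraries: it was 4 without WT anti-CD3 replicate 2, 3 without KO anti-CD3 replicate 3 and 23 without KO both-antibody replicate 3. Cdca8, Kif2c and Top2a stayed called whichever library was left out. After the GC correction 21 were higher (10.6% of all genes) and 2 lower (11.5% of all genes), adding Anln, Birc5, Bub1, Cenpe, Ect2, Hmmr, Kif11, Kif4 and Smc2 to the higher and Smc4 to the lower, with Aurka no longer called.

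With both antibodies, 11 were higher in KO (9.84% of all genes) and 0 lower (6.3% of all genes). They were Bub1, Ccna2, Cdk1, Ect2, Kif2c, Mki67, Ncapg, Smc2, Top2a, Tpx2 and Ttk. The median log2 fold change was 0.75, against 0.00 for all genes tested, and 36 values lay above 0. Every KO library exceeded both WT libraries for 22 members, against 24.6% of all genes. These calls rest on few libraries. The count was 0 without either WT both-antibody library, 3 without KO both-antibody replicate 3, 6 without its replicate 2 and 20 without its replicate 1. It was 7 without KO anti-CD3 replicate 2, KO unstimulated replicate 1 or WT unstimulated replicate 2, and 0 when only the 5 libraries compared were fitted. With the GC correction 8 were higher (10.1% of all genes), without Bub1, Ect2 and Mki67, and Cenpa was lower (7.52% of all genes).

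In unstimulated cells 4 were higher in KO (15.3% of all genes), Aurkb, Ccnb2, Cdca3 and Ncapd2, and Cenpa was lower (10.1% of all genes). The median log2 fold change was 0.18, against -0.01 for all genes tested, and 33 of 42 values lay above 0. After the GC correction 37 of 42 did, with a median of 0.23. None of the 4 stayed called after the GC correction, where Prc1 was called higher instead (log2 fold change 0.69) and Cenpa stayed lower. Of all genes 3.38% were then higher and 3.02% lower. The count of 5 was 0 without KO unstimulated replicate 2, 1 without WT unstimulated replicate 1 and 2 without WT unstimulated replicate 3.

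Ccna2, Cdk1, Kif2c, Ncapg, Top2a and Tpx2 were called higher in KO both with anti-CD3 and with both antibodies. All 6 were also called in both comparisons after the GC correction. For 18 members every KO library exceeded every WT library in each stimulated state, as for 10.8% of all genes. For Cenpa and Ndc80 every KO library lay below every WT library in each. By state, that held for 3 of the 42 with anti-CD3 (17.6% of all genes) and 2 with both antibodies (24.4% of all genes). These comparisons share no libraries with each other, but the fit shares its estimate of the spread. Each shares its WT libraries with the stimulation comparisons above.

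**Figure D3:**
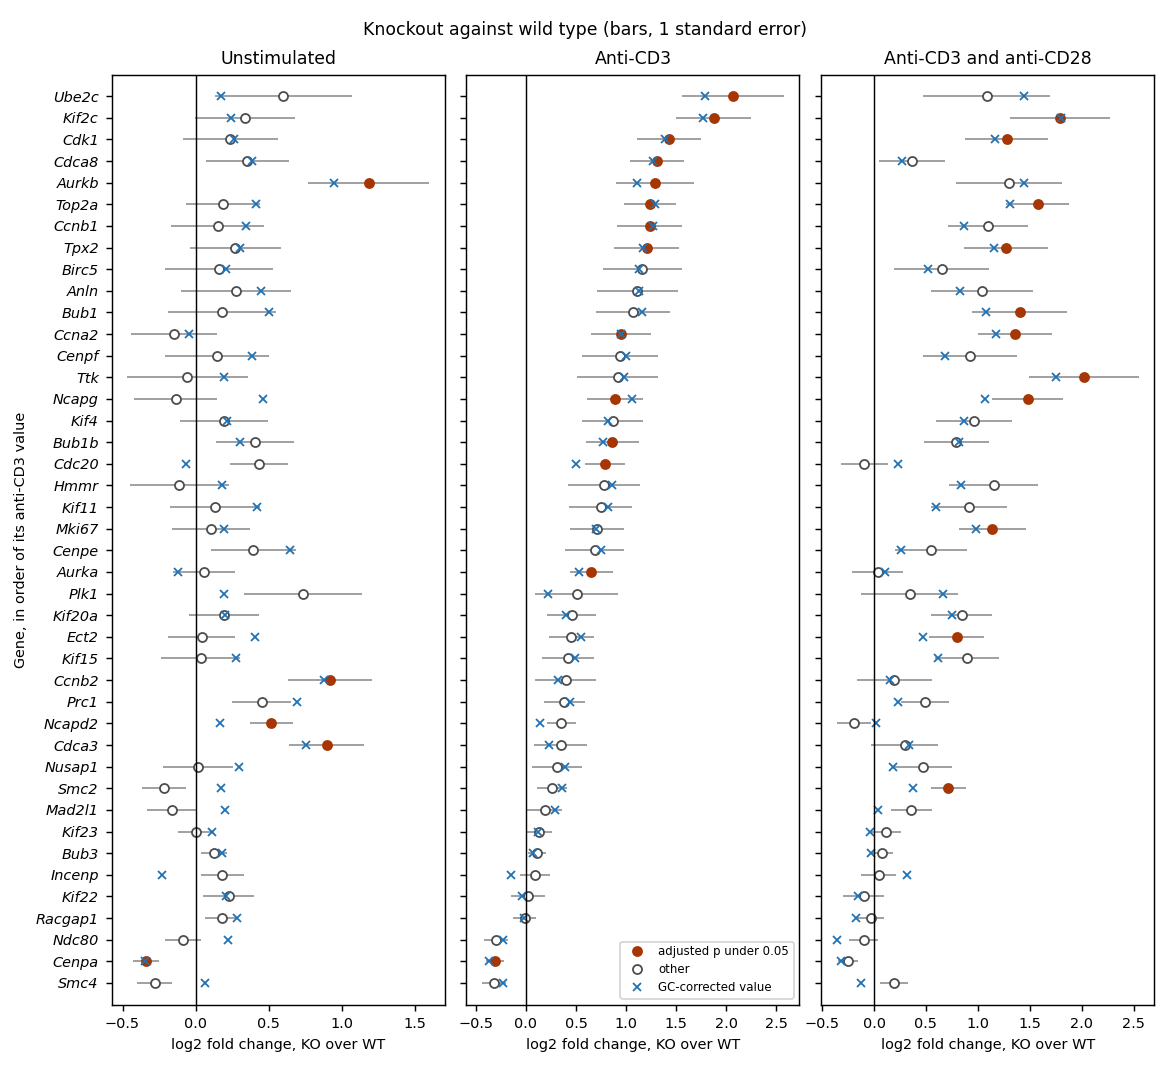
Log2 fold change of KO over WT for the 42 genes in each state, with 1 SE. Filled points were called at an adjusted p under 0.05, and crosses give the value after the correction for GC content. With anti-CD3, 38 of 42 values lie above 0, and Cenpa, Ndc80, Racgap1 and Smc4 lie below.

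Top2a (ENSMUSG00000020914, chr11:98992943-99024189, minus strand) encodes the topoisomerase that untangles sister chromatids. Its excess in KO was called in both stimulated states. WT libraries held 49.9, 41.4 and 29.1 CPM unstimulated, 26.2, 19.6 and 29.6 with anti-CD3 and 21.2 and 17.3 with both. KO libraries held 44.7, 36.0 and 57.8 unstimulated, 52.3, 53.1 and 71.8 with anti-CD3 and 41.2, 52.2 and 78.6 with both CPM. Groups overlapped in unstimulated cells and lay apart in each stimulated state, with the third KO library highest each time. The log2 fold change of KO over WT was 0.19 ± 0.25, adjusted p = 0.61 unstimulated, 1.24 ± 0.26, adjusted p = 0.00526 with anti-CD3 and 1.58 ± 0.30, adjusted p = 0.00638 with both antibodies. In WT cells Top2a fell with both antibodies (log2 fold change -1.07 ± 0.30, adjusted p = 0.0136). In KO cells it was 0.32 ± 0.25, adjusted p = 0.32 by the same measure.

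Mki67 encodes Ki-67, the protein that coats mitotic chromosomes and is the usual marker of cycling cells. It stood at 35.6, 28.5 and 23.3 CPM in unstimulated WT libraries, 13.7, 9.02 and 15.9 with anti-CD3 and 13.6 and 7.10 with both antibodies. In KO it stood at 30.8, 28.6 and 35.2 unstimulated, 19.5, 17.6 and 25.3 with anti-CD3 and 17.8, 18.7 and 31.8 with both CPM. The highest WT levels were thus in unstimulated cells, and all stimulated WT libraries lay below them. The log2 fold change in WT was -1.19 ± 0.27, adjusted p = 0.00472 with anti-CD3 and -1.5 ± 0.32, adjusted p = 0.00278 with both antibodies. In KO it was -0.59 ± 0.27, adjusted p = 0.099 and -0.47 ± 0.27, adjusted p = 0.169, not called. KO exceeded WT with both antibodies (log2 fold change 1.14 ± 0.32, adjusted p = 0.0296), a call lost after the GC correction, without either WT library or without KO both-antibody replicate 3.

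Condensin, which folds chromosomes for division, is built on Smc2 and Smc4. Ncapd2 and Ncapg are subunits of condensin I. Smc2 stood at 60.5, 53.4 and 52.9 CPM in unstimulated WT libraries, 57.8, 62.8 and 59.7 with anti-CD3 and 43.1 and 45.7 with both. KO libraries held 49.7, 45.3 and 48.9 unstimulated, 66.0, 68.9 and 81.0 with anti-CD3 and 53.5, 68.8 and 96.9 with both CPM. It rose in KO with anti-CD3 (log2 fold change 0.59 ± 0.15, adjusted p = 0.00493) and with both antibodies (0.61 ± 0.15, adjusted p = 0.00344), and WT values were 0.11 and -0.32, not called. With both antibodies KO exceeded WT by a log2 fold change of 0.72 ± 0.17, adjusted p = 0.0134. The GC correction lowered the KO response to both antibodies to 0.12 and ended that call.

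Smc4 was the most abundant member. WT libraries held 1033, 849 and 869 CPM unstimulated, 976, 1011 and 1107 with anti-CD3 and 872 and 821 with both. KO libraries held 834, 636 and 797 unstimulated, 812, 836 and 823 with anti-CD3 and 822, 943 and 1131 with both CPM. It rose in KO with both antibodies (log2 fold change 0.35 ± 0.12, adjusted p = 0.0234), but the value was -0.07 after the GC correction. With anti-CD3 every KO library lay below every WT one (log2 fold change -0.32 ± 0.12, adjusted p = 0.0764), and Smc4 was called lower there after the GC correction (log2 fold change -0.23). The rise in KO with both antibodies also lost its call without KO both-antibody replicate 3 or KO unstimulated replicate 2. Those are the libraries of extreme GC tilt.

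Ncapg stood at 5.51, 5.21 and 3.96 CPM in unstimulated WT libraries, 3.76, 2.87 and 4.79 with anti-CD3 and 2.86 and 1.91 with both. KO libraries held 4.04, 3.79 and 5.82 unstimulated, 5.86, 6.19 and 8.82 with anti-CD3 and 4.49, 5.70 and 9.73 with both CPM. KO libraries given either stimulus all exceeded their WT counterparts. The log2 fold change of KO over WT was 0.89 ± 0.28, adjusted p = 0.0413 with anti-CD3, lost in 10 of 17 fits that left out 1 library, and 1.48 ± 0.34, adjusted p = 0.0123 with both antibodies, lost without either WT library. Ncapd2 was not called between the genotypes in either stimulated state. It stood at 25.6, 26.2 and 26.6 CPM in unstimulated WT and 31.4, 43.6 and 36.7 in unstimulated KO libraries (log2 fold change 0.52 ± 0.15, adjusted p = 0.0188), and at 28.1, 21.7 and 23.2 and 29.5, 31.3 and 32.1 with anti-CD3. With both antibodies it stood at 29.8 and 27.4 in WT and 30.4, 25.1 and 19.3 in KO, and it fell in KO (log2 fold change -0.58 ± 0.15, adjusted p = 0.004). The unstimulated difference was 0.17 after the GC correction and no longer called.

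Of the 6 cyclin and entry kinase genes, 4 were called higher in KO with anti-CD3: Aurka, Ccna2, Ccnb1 and Cdk1. Cdk1 encodes the mitotic kinase and Ccnb1 its main cyclin. Cdk1 stood at 2.69, 2.81 and 2.26 CPM in unstimulated WT libraries, 1.48, 1.71 and 2.27 with anti-CD3 and 1.45 and 1.37 with both antibodies. KO libraries held 3.14, 1.99 and 4.46 unstimulated, 3.15, 5.01 and 6.55 with anti-CD3 and 2.5, 2.83 and 4.98 with both CPM. Groups overlapped unstimulated and lay apart with either stimulus. KO exceeded WT by log2 fold changes of 1.43 ± 0.32, adjusted p = 0.0069 with anti-CD3 and 1.28 ± 0.40, adjusted p = 0.0395 with both antibodies. The first call was lost without KO anti-CD3 replicate 3, and the second in 8 of 17 fits that left out 1 library.

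Ccnb1 stood at 3.18, 3.31 and 1.53 CPM in unstimulated WT libraries, 1.82, 1.14 and 2.20 with anti-CD3 and 1.97 and 1.47 with both. KO libraries held 3.09, 2.09 and 4.20 unstimulated, 3.88, 3.66 and 4.44 with anti-CD3 and 2.61, 3.98 and 4.45 with both CPM. Every stimulated KO library lay above its WT counterparts. The log2 fold change was 1.24 ± 0.32, adjusted p = 0.0156 with anti-CD3, called, and 1.10 ± 0.38, adjusted p = 0.0578 with both antibodies, not called. The call was lost without KO anti-CD3 replicate 3 or WT anti-CD3 replicate 2. Ccnb2, the other B-type cyclin, was called in other comparisons. It stood at 1.59, 1.82 and 1.07 CPM in unstimulated WT and 3.09, 2.49 and 3.10 in unstimulated KO libraries, and KO fell to 1.02, 1.41 and 1.68 with anti-CD3 and 1.5, 0.837 and 1.76 with both. WT held 1.48, 0.930 and 0.840 and 1.25 and 1.13 CPM. The fall in KO had log2 fold changes of -1.04 ± 0.29, adjusted p = 0.00921 and -1.07 ± 0.30, adjusted p = 0.00776. The unstimulated excess over WT was 0.91 ± 0.29, adjusted p = 0.0292, and was no longer called after the GC correction or without any 1 of 5 of the 6 unstimulated libraries.

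Ccna2, the cyclin of S and G2 phase, stood at 7.13, 6.69 and 6.68 CPM in unstimulated WT libraries, 3.24, 3.39 and 4.79 with anti-CD3 and 3.48 and 2.74 with both. KO libraries held 6.18, 5.12 and 7.44 unstimulated, 6.06, 6.02 and 9.86 with anti-CD3 and 5.16, 5.76 and 13.0 with both CPM. It fell in WT with both antibodies (log2 fold change -1.14 ± 0.36, adjusted p = 0.0209). KO exceeded WT by log2 fold changes of 0.95 ± 0.30, adjusted p = 0.0405 with anti-CD3 and 1.35 ± 0.36, adjusted p = 0.0205 with both. The anti-CD3 call was lost in 10 of 17 fits that left out 1 library. The kinase Aurka, which matures the centrosome, was higher in KO with anti-CD3 (log2 fold change 0.65 ± 0.21, adjusted p = 0.0474), a call lost after the GC correction and in 12 of the 17 fits that left out 1 library. Plk1, the kinase that triggers mitotic entry and exit, was called nowhere. It held 0.972, 0.532 and 1.02 CPM in unstimulated WT, 1.42, 0.439 and 0.700 with anti-CD3 and 1.04 and 1.13 with both. KO libraries held 1.18, 1.56 and 1.36 unstimulated, 1.16, 0.844 and 1.36 with anti-CD3 and 2.00, 1.41 and 0.703 with both CPM. Groups overlapped in each stimulated state.

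**Figure D4:**
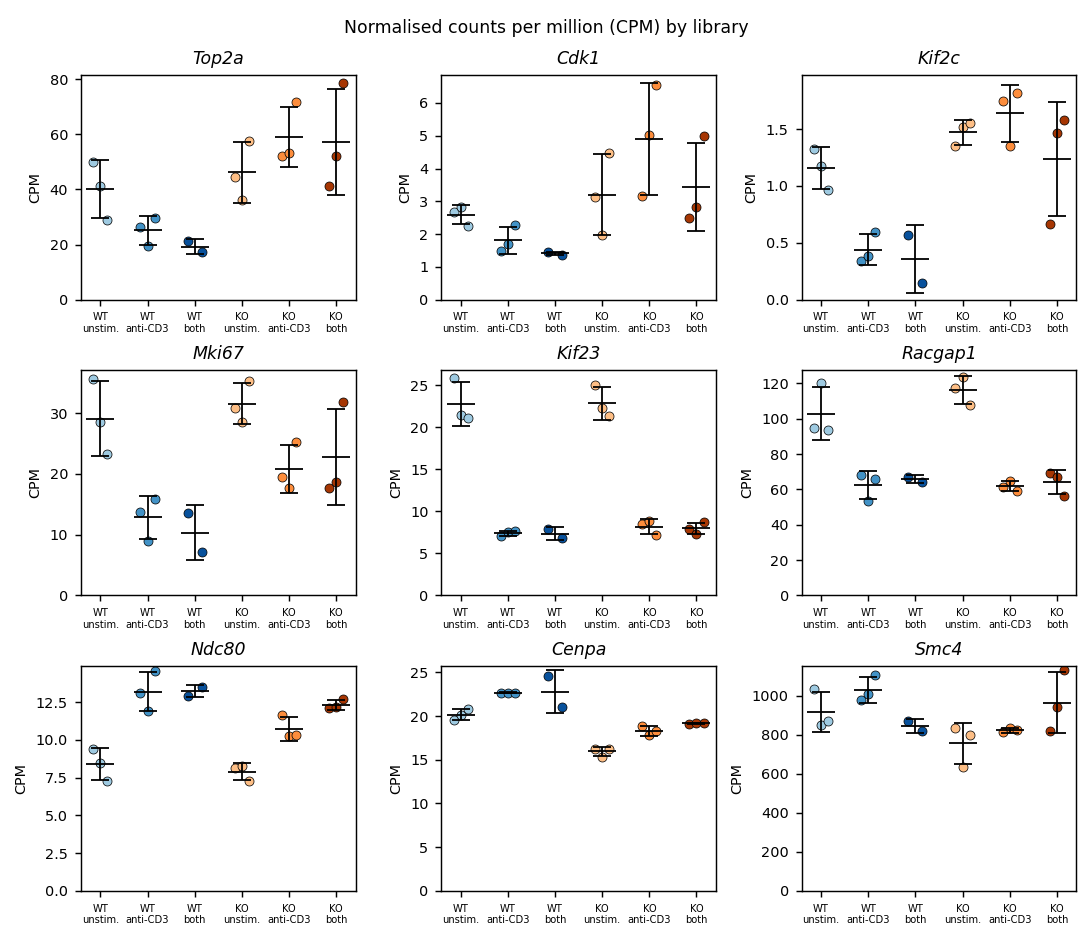
CPM of 9 members in each library (points, in order of replicate) with the group mean and SD (bars), for WT (blue) and KO (orange). Every axis starts at 0. Top2a, Cdk1 and Kif2c lie higher in stimulated KO than in stimulated WT libraries, Kif23 and Racgap1 fall on stimulation in both genotypes, Ndc80 rises in both and Cenpa lies lower in KO in every state.

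The chromosomal passenger complex corrects faulty attachments and steers cytokinesis. It joins the kinase Aurkb to Incenp, Birc5 and borealin, the product of Cdca8. Cdca8 stood at 1.17, 1.29 and 1.64 CPM in unstimulated WT libraries, 2.22, 0.930 and 1.43 with anti-CD3 and 1.87 and 1.71 with both. KO libraries held 2.08, 1.43 and 1.81 unstimulated, 4.31, 3.15 and 3.50 with anti-CD3 and 2.66, 2.09 and 2.17 with both CPM. The 3 KO libraries given anti-CD3 were the highest of all 17. Cdca8 rose in KO with anti-CD3 (log2 fold change 1.08 ± 0.27, adjusted p = 0.00396) and was higher there than in WT (1.31 ± 0.27, adjusted p = 0.00372). Neither call was lost when any library was left out.

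Aurkb stood at 0.778, 1.33 and 0.453 CPM in unstimulated WT libraries, 1.08, 1.37 and 1.19 with anti-CD3 and 0.831 and 0.636 with both. KO libraries held 1.07, 1.67 and 3.43 unstimulated, 3.20, 1.97 and 3.71 with anti-CD3 and 1.83, 1.20 and 2.40 with both CPM. KO exceeded WT by log2 fold changes of 1.18 ± 0.41, adjusted p = 0.0446 unstimulated and 1.29 ± 0.39, adjusted p = 0.0338 with anti-CD3. The unstimulated groups overlapped, and that call was lost after the GC correction and in 11 of 17 fits that left out 1 library. The anti-CD3 call was lost in 6 of 17, among them those without KO anti-CD3 replicate 1 or 3 or any 1 of the 3 WT anti-CD3 libraries.

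Birc5 stood at 2.69, 2.13 and 2.83 CPM in unstimulated WT libraries, 1.19, 0.827 and 1.40 with anti-CD3 and 1.82 and 1.03 with both. KO libraries held 2.75, 2.28 and 3.69 unstimulated, 3.25, 1.41 and 2.83 with anti-CD3 and 1.66, 1.20 and 3.87 with both CPM. It fell in WT with anti-CD3 (log2 fold change -1.17 ± 0.40, adjusted p = 0.0386), a call lost without any 1 of the 6 libraries compared. Incenp, the scaffold of the complex, was its most abundant member. It held 15.3, 13.9 and 17.1 CPM in unstimulated WT, 13.1, 12.7 and 12.9 with anti-CD3 and 14.1 and 11.9 with both. KO libraries held 18.5, 20.7 and 12.8 unstimulated, 13.3, 13.5 and 14.4 with anti-CD3 and 14.3, 14 and 12.0 with both CPM. Its fall in KO with both antibodies (log2 fold change -0.38 ± 0.15, adjusted p = 0.0442) came to -0.02 after the GC correction, and the call was lost in 11 of 17 fits that left out 1 library.

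In the spindle checkpoint and APC/C group, 3 of 8 members were higher in KO with anti-CD3: Bub1b, Cdc20 and Ube2c. Bub1b encodes the checkpoint kinase BubR1, Cdc20 the activator of the APC/C that the checkpoint restrains, and Ube2c its ubiquitin-conjugating enzyme. The log2 fold changes were 0.86 ± 0.27, adjusted p = 0.036 for Bub1b, 0.79 ± 0.20, adjusted p = 0.0133 for Cdc20 and 2.07 ± 0.51, adjusted p = 0.0113 for Ube2c. For each of the 3, every KO library given anti-CD3 lay above every WT one. Ube2c stood at 0.341, 0.233 and 0.350 CPM in WT and 1.16, 1.07 and 1.55 in KO libraries given anti-CD3, so its fold rests on few reads. All 3 calls were lost without KO anti-CD3 replicate 3 or WT anti-CD3 replicate 2. The Bub1b call was lost in 6 of the 17 fits that left out 1 library and with the replicate block, and those of Cdc20 and Ube2c in 2.

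Ttk, the kinase Mps1 at the head of the checkpoint, and its target Bub1 were higher in KO with both antibodies. Ttk stood at 1.04, 0.988 and 0.679 CPM in unstimulated WT libraries, 0.853, 0.388 and 1.08 with anti-CD3 and 0.415 and 0.392 with both. KO libraries held 1.07, 0.602 and 1.16 unstimulated, 1.02, 1.01 and 2.14 with anti-CD3 and 1.28, 1.47 and 2.23 with both CPM. The log2 fold change with both antibodies was 2.02 ± 0.53, adjusted p = 0.0195 for Ttk and 1.40 ± 0.46, adjusted p = 0.0456 for Bub1. The Bub1 call was lost after the GC correction, and both were lost without either WT library or without KO both-antibody replicate 3.

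Bub3, which carries Bub1 and BubR1 to the kinetochore, was the fourth most abundant member per kilobase. It held 62.7, 66.8 and 58.9 CPM in unstimulated WT, 80.7, 73.9 and 70.7 with anti-CD3 and 72.6 and 74.7 with both. KO libraries held 65.2, 74.5 and 65.9 unstimulated, 81.0, 76.6 and 84.9 with anti-CD3 and 78.8, 84.2 and 70.8 with both CPM. It rose slightly with anti-CD3, by log2 fold changes of 0.26 ± 0.089, adjusted p = 0.0453 in WT and 0.24 ± 0.089, adjusted p = 0.0461 in KO. These calls were lost in 9 and 11 of 17 fits that left out 1 library, and the KO call also after the GC correction. Mad2l1, the checkpoint protein that binds Cdc20, was called nowhere. Cdca3, a trigger of mitotic entry that is an APC/C substrate, was called in the same comparisons as Ccnb2. It stood at 2.88, 1.90 and 2.04 CPM in unstimulated WT and 4.44, 3.97 and 4.46 in unstimulated KO libraries (log2 fold change 0.90 ± 0.26, adjusted p = 0.02). KO levels came to 2.28, 2.31 and 2.32 with anti-CD3 and 1.89, 2.72 and 1.11 with both, and WT levels to 2.11, 1.34 and 2.06 and 1.51 and 1.62. The falls in KO had log2 fold changes of -0.89 ± 0.26, adjusted p = 0.0115 and -1.15 ± 0.27, adjusted p = 0.00213 and stayed called whichever library was left out. The unstimulated excess was not called after the GC correction.

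Of the 8 spindle motor and assembly genes, Kif2c had the largest log2 fold change of KO over WT with anti-CD3. It encodes MCAK, a kinesin that takes microtubules apart. It stood at 1.33, 1.18 and 0.962 CPM in unstimulated WT libraries, 0.341, 0.388 and 0.595 with anti-CD3 and 0.571 and 0.147 with both. KO libraries held 1.35, 1.52 and 1.55 unstimulated, 1.74, 1.35 and 1.82 with anti-CD3 and 0.666, 1.47 and 1.58 with both CPM. It fell in WT with each stimulus, by log2 fold changes of -1.38 ± 0.38, adjusted p = 0.013 and -1.71 ± 0.48, adjusted p = 0.0112, and KO values were 0.16 and -0.26, not called. KO exceeded WT by log2 fold changes of 1.87 ± 0.37, adjusted p = 0.00295 with anti-CD3 and 1.79 ± 0.48, adjusted p = 0.0221 with both antibodies. The Kif2c call with both antibodies was lost without either WT library or without KO both-antibody replicate 2 or 3. It was also lost with only the groups compared and without the 2 libraries of extreme GC tilt. Tpx2, which seeds spindle microtubules and activates Aurora A, was higher in KO by 1.21 ± 0.33, adjusted p = 0.0189 with anti-CD3 and 1.27 ± 0.40, adjusted p = 0.041 with both antibodies (log2 fold changes). The first of these was lost without KO anti-CD3 replicate 3 or WT anti-CD3 replicate 2, and the second in 11 of 17 fits that left out 1 library. It fell in WT with both antibodies (log2 fold change -1.30 ± 0.40, adjusted p = 0.0184).

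Kif15, a motor that holds spindle poles apart, rose in KO. It held 6.74, 7.03 and 3.96 CPM in unstimulated WT libraries, 8.31, 7.55 and 9.34 with anti-CD3 and 6.18 and 5.58 with both. KO libraries held 5.67, 4.41 and 8.80 unstimulated, 10.8, 8.89 and 13.9 with anti-CD3 and 7.82, 11 and 14.1 with both CPM. The log2 fold changes in KO were 0.88 ± 0.27, adjusted p = 0.0152 and 0.84 ± 0.27, adjusted p = 0.0172, and the second call was lost after the GC correction (0.52). Kif22, the chromokinesin Kid, rose in WT. It held 4.51, 4.75 and 4.30 CPM in unstimulated WT libraries, 7.17, 5.81 and 6.16 with anti-CD3 and 6.49 and 6.41 with both. KO libraries held 5.45, 6.07 and 4.14 unstimulated, 7.12, 6.08 and 6.20 with anti-CD3 and 7.16, 6.07 and 4.81 with both CPM. Its log2 fold changes in WT were 0.49 ± 0.17, adjusted p = 0.0474 and 0.51 ± 0.19, adjusted p = 0.0492, and each call was lost in 13 of 17 fits that left out 1 library. Hmmr, a spindle-binding protein, and Nusap1, which bundles microtubules near chromosomes, fell in WT with anti-CD3 by log2 fold changes of -1.12 ± 0.36, adjusted p = 0.0279 and -0.78 ± 0.25, adjusted p = 0.0274. Hmmr also fell with both antibodies (log2 fold change -1.30 ± 0.42, adjusted p = 0.0258). Kif11, the bipolar spindle motor, and Kif4, a chromokinesin, were called nowhere. Both were called higher in KO with anti-CD3 after the GC correction, at log2 fold changes of 0.82 and 0.82.

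Adding anti-CD28 to anti-CD3 left every member uncalled. In WT cells 0 of 42 were higher and 0 lower with both antibodies than with anti-CD3 alone, as were 0% and 0% of all genes by edgeR. At an unadjusted p under 0.05 there were 3 members and 3506 genes. DESeq2 called 0 members, with 408 genes higher and 109 lower, and limma voom 6 members, with 3213 and 2845 genes. Leaving out KO both-antibody replicate 1 or 3 gave 1 member by edgeR. In KO cells the counts were 0 and 0, with 0% of all genes in either direction, and 2 members and 1460 genes at an unadjusted p under 0.05. DESeq2 called 0 members and 0 genes there. Limma voom called 10 members, with 2250 genes higher and 3300 lower. The medians of the 42 were -0.13 in WT and -0.04 in KO (log2 fold change), both against -0.01 for all genes tested.

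Whether the response differed between genotypes was tested as an interaction, the KO response minus the WT response on the log2 scale. For anti-CD3, 0 of 42 were called. Of all genes 0.0492% were higher and 0.00616% lower. At an unadjusted p under 0.05 there were 9 members and 2399 genes, and both DESeq2 and limma voom called 0 members. Of all genes, DESeq2 called 116 higher and 96 lower, and voom 653 and 265. The median interaction of the 42 was 0.43, against 0.02 for all genes, and 31 values lay above 0. The differences between the WT and KO lists of called genes with anti-CD3 are therefore not shown to be differences between genotypes.

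For both antibodies, 6 interactions were higher (18.3% of all genes) and 1 lower (19.2% of all genes). Ccna2 (1.51 ± 0.46, adjusted p = 0.0175), Ncapg (1.61 ± 0.44, adjusted p = 0.0101), Smc2 (0.93 ± 0.23, adjusted p = 0.00571), Smc4 (0.47 ± 0.18, adjusted p = 0.0491), Top2a (1.39 ± 0.39, adjusted p = 0.0131) and Ttk (2.08 ± 0.68, adjusted p = 0.0232) were higher in KO (interaction, log2). Ncapd2 was lower (-0.71 ± 0.22, adjusted p = 0.0176). The difference in GC tilt was -1.98 in this comparison, larger in size than in any other, and none of the 7 was called after the GC correction. Incenp alone was then called, higher (0.55, against -0.14 before), as were 8.61% of all genes, with 7% lower. The count of 7 was 4 without KO unstimulated replicate 2, 2 without WT both-antibody replicate 3, 14 without KO both-antibody replicate 1 and 11 without KO unstimulated replicate 3.

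The 6 groups were ranked for each gene by mean CPM. WT cells given both antibodies held the lowest mean for 24 of 42 genes and WT cells given anti-CD3 for 10. KO cells given anti-CD3 held the highest mean for 16, unstimulated KO cells for 15 and KO cells given both antibodies for 7. Each of the 3 WT groups was highest for at most 2. For Top2a the order from the top was KO anti-CD3, KO both, KO unstimulated, WT unstimulated, WT anti-CD3 and WT both. Neighbours in such an order seldom stood apart. For 22 genes every pair of neighbouring groups overlapped, for 16 exactly 1 pair did not, and for 3 genes 2 pairs did not. Cenpa had 4 pairs apart.

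A single summary per library was the median over the 42 genes of log2(CPM + 0.5) minus each gene's mean. It was -0.17 to 0.15 in unstimulated WT, -0.58 to -0.14 in WT with anti-CD3 and -0.48 and -0.27 in WT with both antibodies. In KO it was 0.06 to 0.41 unstimulated, 0.08 to 0.45 with anti-CD3 and -0.09 to 0.54 with both. All KO libraries given a stimulus lay above all WT libraries given one, and unstimulated groups overlapped. The third KO library of each state was the highest of its group, and held the top value of the group for 26 of 42 genes unstimulated, 33 with anti-CD3 and 29 with both. The median coefficient of variation of the genes within a group was 11.2% to 29.3%, the largest in KO cells given both antibodies. No label marks the third KO libraries as a batch.

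**Figure D5:**
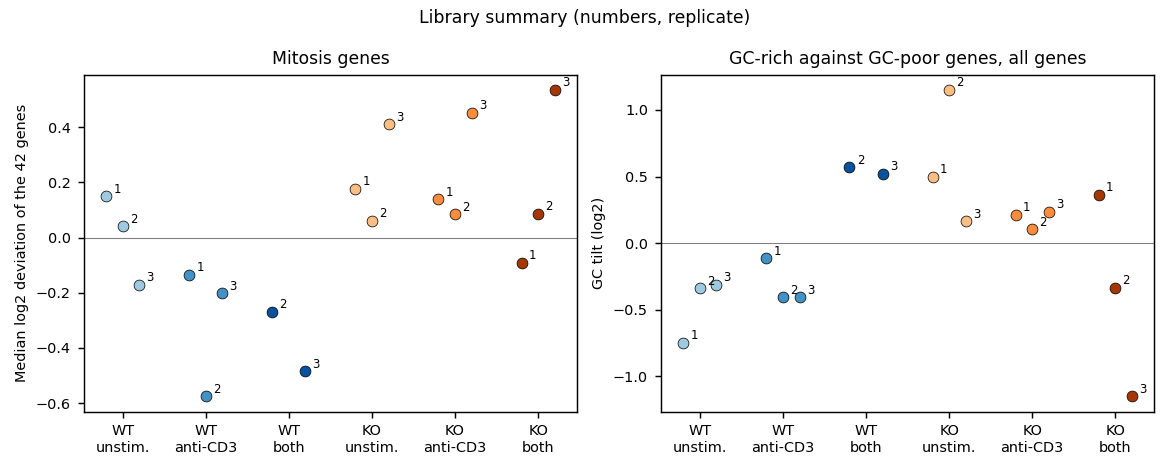
Median log2 deviation of the 42 genes per library (left) and GC tilt of the same library over all genes (right), by group, with replicate numbers. Stimulated WT libraries lie lowest on the left and the third KO library is the highest of its group in each state. On the right KO unstimulated replicate 2 (1.15) and KO both-antibody replicate 3 (-1.15) stand apart.

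Further genes of the same process came from 8 lists that hold none of the 42. They are described by counts, to be read against the shares of all genes given above for the same comparisons. Of 36 DNA replication genes, 24 were higher and 0 lower in KO with anti-CD3, and 22 higher and 1 lower with both antibodies. In unstimulated cells 13 were higher and 0 lower, and 5 and 0 after the GC correction. The corrected counts were 27 and 0 with anti-CD3 and 25 and 0 with both. With anti-CD3, 7 rose and 1 fell in WT, and 23 rose and 1 fell in KO. Uhrf1, which keeps DNA methylation through replication, differed by a log2 fold change of 1.81 ± 0.19, adjusted p = 2.85e-05 in KO with anti-CD3. The helicase subunit genes Mcm5 and Mcm2 differed by 1.00 ± 0.11, adjusted p = 4.21e-05 and 0.98 ± 0.11, adjusted p = 4.56e-05. The origin gene Orc1 rose with anti-CD3 by 1.06 ± 0.31, adjusted p = 0.0189 in WT and 2.90 ± 0.31, adjusted p = 1.27e-06 in KO (log2 fold changes). The list's median log2 fold change of KO over WT with anti-CD3 was 0.63, against 0.70 for the mitosis genes.

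Of 18 other regulators of mitotic entry and exit, 17 passed the filter. Of these, 5 were higher and 1 lower in KO with anti-CD3, and 6 higher and 1 lower with both antibodies. The corrected counts were 8 and 1, and 4 and 1. In unstimulated cells 1 was higher and 2 lower. Cdc25a, a phosphatase that activates cyclin-dependent kinases, was higher with anti-CD3 (log2 fold change 0.80 ± 0.12, adjusted p = 0.000536), and Cdc25b was lower (-0.55 ± 0.16, adjusted p = 0.0315). Wee1, the kinase that holds CDK1 inactive, rose with anti-CD3 by 0.83 ± 0.21, adjusted p = 0.00774 in WT and 1.86 ± 0.21, adjusted p = 3.35e-06 in KO (log2 fold changes). Haspin, a histone kinase of mitosis, fell with anti-CD3, by log2 fold changes of -0.74 ± 0.14, adjusted p = 0.000717 in WT and -0.63 ± 0.14, adjusted p = 0.00182 in KO. In all, 2 of the 17 rose and 2 fell in WT with anti-CD3, and 8 rose and 1 fell in KO.

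Of 35 other kinetochore and centromere genes, 7 were higher and 0 lower in KO with anti-CD3, among them Kntc1, which recruits dynein to the kinetochore (log2 fold change 1.84 ± 0.37, adjusted p = 0.00333), and 5 and 0 with both antibodies. The corrected counts were 12 and 1 with anti-CD3 and 3 and 1 with both. In unstimulated cells 3 were higher and 2 lower, and 0 and 0 after the correction. Of 27 other spindle and centrosome genes, 5 were higher and 0 lower with anti-CD3, among them the tubulin gene Tuba1b (log2 fold change 0.56 ± 0.096, adjusted p = 0.00106), and 4 and 1 with both antibodies. The corrected counts were 6 and 0, and 5 and 1. In unstimulated cells 6 were higher and 0 lower, and 1 and 1 after the correction. The tubulin gene Tuba1c rose with anti-CD3 in both genotypes (log2 fold changes 0.75 ± 0.12, adjusted p = 0.000152 in WT and 0.98 ± 0.12, adjusted p = 6.16e-06 in KO), while Aspm, which focuses spindle poles, fell in both (-1.08 ± 0.32, adjusted p = 0.0199 and -0.92 ± 0.31, adjusted p = 0.0288). Of 11 other cytokinesis genes, 1 was higher with anti-CD3, the kinase gene Cit (log2 fold change 1.26 ± 0.31, adjusted p = 0.0103), and 2 with both, with 0 lower. The corrected counts were 3 higher and 1 lower, and 3 and 0. In unstimulated cells 1 was higher and 1 lower.

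Of 19 cohesin and other condensin genes, 5 were higher and 3 lower in KO with anti-CD3. Espl1, the protease separase that cuts cohesin, was higher by a log2 fold change of 2.19 ± 0.33, adjusted p = 0.000432, and Esco2, which seals cohesin in S phase, by 1.55 ± 0.39, adjusted p = 0.0127. Those lower were Ncapd3, a subunit of condensin II (-0.30 ± 0.086, adjusted p = 0.0238), Pttg1, which encodes securin, the inhibitor of separase (-0.30 ± 0.098, adjusted p = 0.0465), and Nipbl, the cohesin loader (-0.28 ± 0.093, adjusted p = 0.0474, all log2 fold changes). The median log2 fold change over the list was -0.14 with anti-CD3. With both antibodies 4 were higher and 1 lower, with a median of 0.27. In unstimulated cells 2 were higher and 8 lower, with a median of -0.20. Counts after the GC correction were 5 and 5 with anti-CD3, 5 and 4 with both, and 0 and 0 unstimulated.

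Of 17 APC/C genes, 3 were higher and 0 lower in KO in each stimulated state, and 3 higher and 1 lower in unstimulated cells. After the GC correction 3 were higher and 0 lower with anti-CD3, 0 higher and 1 lower with both, and 1 higher and 0 lower unstimulated. Ube2s, which extends the ubiquitin chains that Ube2c starts, fell with anti-CD3 by log2 fold changes of -0.95 ± 0.097, adjusted p = 1.40e-06 in WT and -0.46 ± 0.096, adjusted p = 0.00121 in KO.

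Of 23 genes of the DREAM, MuvB, B-Myb and FoxM1 factors, 6 were higher and 2 lower in KO with anti-CD3, and 3 and 0 with both antibodies. Counts after the GC correction were 6 and 4, and 4 and 4. In unstimulated cells 5 were higher and 4 lower, and 0 and 1 after the correction. The DREAM pocket protein gene Rbl2 was lower (log2 fold change -0.44 ± 0.070, adjusted p = 0.000689), and so was Rbl1 (-0.40 ± 0.098, adjusted p = 0.0107). E2f1, an activator of S phase genes, was higher by 1.57 ± 0.30, adjusted p = 0.00227 and its partner Tfdp1 by 0.99 ± 0.13, adjusted p = 0.000151 (log2 fold changes). Mybl2, which encodes B-Myb, was higher with anti-CD3 (log2 fold change 1.45 ± 0.34, adjusted p = 0.00919). So was E2f4 (log2 fold change 0.54 ± 0.13, adjusted p = 0.00881). Lin9 and Lin54, of the same list, were not called there (log2 fold changes -0.05 and -0.03). The list's median log2 fold change with anti-CD3 was 0.03, against 0.04 for all genes tested. Foxm1 was 0.47 ± 0.19, adjusted p = 0.0945 in KO over WT with anti-CD3, not called. It rose in WT with anti-CD3 (log2 fold change 0.73 ± 0.19, adjusted p = 0.0108) while 8 of the mitosis genes fell there. In unstimulated cells E2f1, E2f4, Foxm1 and Mybl2 were called higher in KO, by log2 fold changes of 0.95, 0.58, 0.78 and 1.18. Lin9 and Lin54 were called lower there (-0.30 and -0.40). None of these unstimulated calls was kept after the GC correction. Rbl2 fell with anti-CD3 in both genotypes, by log2 fold changes of -0.31 ± 0.070, adjusted p = 0.00352 in WT and -0.58 ± 0.070, adjusted p = 6.54e-06 in KO.

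Reads of some members could be shared with other genes. Ccnb1, Ccnb2, Kif22 and Kif4 each have a pseudogene named after them. Ccna2, Cdc20, Cdca8, Kif20a, Kif4, Ncapg, Nusap1, Prc1, Ube2c and Bub3 overlap a protein-coding gene on the opposite strand. The strand setting of the counting is not given in the sources used here, so their values are uncertain to that extent.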

How the data were processed

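RNA sequencing of 17 libraries was analysed from gene counts. The authors deposited 1 table of whole-number counts per library. Per the submitters' processing notes, reads were processed with STAR 2.5.2 and RSEM 1.3.0 on GRCm38/mm10. The strand setting and any rounding were not stated. A joined table held the same values and was not used.

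Each table listed 53679 genes, of which 24955 had 0 counts in every library. Libraries were grouped by genotype and stimulation from the labels. Counts were fitted with edgeR 4.0.16 in R 4.3.3 (TMM scaling, filterByExpr by group, robust quasi-likelihood fit, 1 coefficient per group, all 17 libraries sharing the spread). There were 11 comparisons over 16246 genes, with Benjamini-Hochberg adjustment over all genes within each and a threshold of 0.05. Standard errors come from the fitted log2 fold changes. CPM values use the TMM-scaled library sizes.

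Alternatives were DESeq2 1.42.0, voom with quality weights from limma 3.58.1, relative log expression scaling, no filter on low counts, at least 1 CPM in 3 libraries, only the groups compared, a replicate block, the block within genotype, a GC correction, leaving out each library in turn, and leaving out together the 2 libraries whose GC tilt was most extreme. The GC correction removed a loess curve (span 0.3) of log2 deviation on GC content from each library as an offset. The fit was tested on simulated data.

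Exon length, GC content and positions came from GENCODE M21, which matched 53650 genes. Promoter windows came from RefSeq (GRCm38.p6). The members and gene lists were chosen with earlier results of these data known. Values in every library are given for 12 members chosen by name, for the 3 with the smallest adjusted p per direction in each comparison, and for those with a called genotype by stimulation interaction. Up to 3 per direction are named from the other lists, with further genes of the DREAM, MuvB, B-Myb and FoxM1 list. Precision is limited by the number of libraries and, for low genes, by counting error.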

Additional observations from a re-analysis of the deposited data

Results flagged for a closer look

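For 7 of 42 members the response to both antibodies differed between KO and WT by the interaction test (edgeR's quasi-likelihood test with Benjamini-Hochberg adjustment). Of the members 6 were higher and 1 lower, and of all genes tested 18.3% were higher and 19.2% lower. The calls are thus not particular to these members. The values given are the KO response minus the WT response on the log2 scale. They were 1.51 for Ccna2, 1.61 for Ncapg, 0.93 for Smc2, 0.47 for Smc4, 1.39 for Top2a, 2.08 for Ttk and -0.71 for Ncapd2. The means of Ccna2, Ncapg, Smc2, Smc4, Top2a and Ttk were lower in WT cells given both antibodies than in unstimulated WT cells. In KO cells these means were higher with both antibodies than unstimulated. Those of Ncapd2 went the other way in each genotype. After the GC correction the values were 1.22 for Ccna2, 0.61 for Ncapg, 0.21 for Smc2, -0.19 for Smc4, 0.90 for Top2a, 1.56 for Ttk and -0.15 for Ncapd2, and none was called. Of the 7, Smc2 alone stayed called whichever single library was left out, and Smc4 was lost in 13 of the 17 such fits.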

How the results depend on the processing

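Of 81 called member differences, 20 kept their call under every alternative run, 61 lost it under at least 1, and 2 changed direction. Counts of members called, in either direction, moved by more than 1.5 times as follows. Calls over all genes follow for voom, DESeq2 and the fit without the 2 libraries of extreme GC tilt. Those after the GC correction are given above. For only the groups compared, single libraries left out and the blocks they are not given here. For KO against WT unstimulated the main count of 5 became 3 with only the groups compared and 2 with the GC correction. For KO against WT with anti-CD3 the count of 14 became 24 with limma voom and 27 with only the groups compared. It was 23 with the GC correction and 22 without the 2 libraries of extreme GC tilt. Voom called 3627 of 16246 genes higher and 2115 lower, and the fit without the 2 libraries 2478 of 16157 higher and 1751 lower. For KO against WT with both antibodies the count of 11 became 19 with DESeq2 and 29 with voom. It was 0 with only the groups compared and 4 without those 2 libraries. Of 16246 genes, DESeq2 called 1979 higher and 1610 lower and voom 4669 and 4701. Without the 2 libraries 1010 of 16157 genes were higher and 516 lower. In WT, anti-CD3 against unstimulated went from 11 to 19 with voom (2643 genes higher and 3085 lower). Both antibodies against unstimulated went from 12 to 20 with voom (4268 genes higher and 4157 lower). It went to 19 with only the groups compared, and also without the 2 libraries (3523 genes higher and 3543 lower). In KO, anti-CD3 against unstimulated went from 9 to 15 with voom (4071 genes higher and 3894 lower). Both antibodies against unstimulated went from 12 to 5 with only the groups compared. Both antibodies against anti-CD3 alone in WT went from 0 to 6 with voom (3213 genes higher and 2845 lower). It went to 3 with only the groups compared and 2 without the 2 libraries (1611 genes higher and 1321 lower). In KO it went from 0 to 10 with voom (2250 genes higher and 3300 lower). The interaction with both antibodies went from 7 to 15 with voom and to 1 with the GC correction or without the 2 libraries. Voom called 4241 genes higher and 4188 lower, and the fit without the 2 libraries 1738 and 2035. Leaving out 1 library at a time gave counts of 0 to 6, 3 to 23 and 0 to 20 for KO against WT in unstimulated, anti-CD3 and both-antibody cells. It gave 4 to 14 (WT) and 8 to 12 (KO) for anti-CD3 against unstimulated, 3 to 16 (WT) and 7 to 14 (KO) for both antibodies against unstimulated, 0 to 1 (WT) and 0 to 0 (KO) for both against anti-CD3 alone, and 0 to 0 and 2 to 14 for the interactions with anti-CD3 and with both. The GC correction turned Smc4 from 0.35 to -0.069 (both antibodies against unstimulated, KO), and in the interaction with both antibodies Smc4 from 0.47 to -0.19 and Incenp from -0.14 to 0.55 (log2). The cause of these changes was not tested.

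Whether replicate numbers pair the libraries was not settled. Over 40 same-numbered pairs the correlation of deviations ran from -0.56 to 0.73, with 14 over 0.1. Their median was 0.024, against -0.01 for other pairs. The highest was between KO unstimulated replicate 3 and KO both-antibody replicate 3. Of 17 libraries, 6 correlated best with their own number. Deviations were not corrected for GC content, so these values cannot decide the question. With the replicate number as a block the counts were 4, 13 and 12 for KO against WT (unstimulated, anti-CD3, both), 13 and 9 for anti-CD3 against unstimulated (WT, KO), 12 and 11 for both antibodies against unstimulated, 0 and 0 for both against anti-CD3, and 0 and 8 for the interactions. With the block within genotype they were 13 and 10, 13 and 11, 0 and 0, and 0 and 6 for the last 4 pairs.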
